A study of Mus musculus with 6 samples.

Results

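The 10 genes described here encode proteins that neutrophils store in their granules or hold in their cytosol. They were chosen by name from the count table of 54532 genes, with earlier results of the same comparison known, as 4 primary granule genes (Mpo, Elane, Prtn3 and Ctsg), 4 secondary granule genes (Ltf, Camp, Ngp and Lcn2) and 2 cytosolic genes (S100a8 and S100a9). Their own differences between the groups are therefore given as a description, without p-values, and calls from the fit across all genes are counted but support nothing. RNA-seq was done on macrophages from the infarcted hearts of 12-week-old C57BL/6 mice, 7 days after permanent occlusion of a coronary artery. The 3 ITGA5 fl/fl libraries came from littermates without Cre, whose Itga5, encoding integrin α5, carries recombination sites but is intact. The 3 Myα5KO libraries came from mice that carry the same floxed alleles and a Cre recombinase driven by LyzM, which acts in myeloid cells, neutrophils and their precursors included. An effect of Cre or of its insertion at the lysozyme locus cannot be told apart from the loss of Itga5 in this design. Cells of individual hearts were depleted of Ly6G+ cells, which are neutrophils, on a magnetic column, and CD11b+ cells were then kept.

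Neutrophils fill their granules in sequence while they mature in the bone marrow. Primary (azurophil) granules are filled at the promyelocyte stage with myeloperoxidase and serine proteases, and secondary (specific) granules are filled later, at the myelocyte and metamyelocyte stages, with lactoferrin, cathelicidin and lipocalin. S100A8 and S100A9 form calprotectin, a very abundant protein of the neutrophil cytosol that monocytes also make. Transcripts of the granule proteins fall steeply before neutrophils leave the marrow, whereas S100A8 and S100A9 transcripts persist in circulating cells.

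Library totals were 15424451 to 18152357 counts in the ITGA5 fl/fl group and 18232574 to 18419287 in the Myα5KO group. Itga5 itself fell to 8.02% of its ITGA5 fl/fl level, with 9666 to 10536 counts in each ITGA5 fl/fl library and 895 to 939 in each Myα5KO library. Macrophage genes were abundant and similar in both groups: Adgre1, which encodes F4/80, stood at 404 and 390 FPKM (fragments per kilobase of gene length, scaled for depth) and the complement gene C1qa at 2490 and 2390 FPKM in the ITGA5 fl/fl and Myα5KO means. Ly6g, the gene of the antigen used for depletion, had 0, 1 and 0 counts in ITGA5 fl/fl libraries 1 to 3, against 0, 2 and 1 in Myα5KO libraries 1 to 3, no more than the 3 counts that a count of 0 allows. Cxcr2, a chemokine receptor of mature neutrophils, had 7 to 8 counts in every library. Counting intervals and floors cover counting error only.

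All 10 genes passed the filter on low counts, which kept 14522 genes. In Myα5KO macrophages 8 of the 10 were called higher and 0 lower, at an adjusted p of 0.05 or less in edgeR's quasi-likelihood test across all tested genes. The same test called 3.56% of all tested genes higher (517 genes) and 5.19% lower (754 genes), and since the members were chosen with this contrast known, nothing is read from the difference. Without composition scaling (library-size scaling) 1212 genes were called higher and 518 lower. The groups did not overlap in 8 of the 10 genes, all higher in Myα5KO, against 14.9% of all tested genes higher without overlap. The exceptions were Prtn3 and Ctsg, both of the primary class. In bulk RNA a larger number of granulocytic cells and more transcript per cell cannot be told apart.

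**Figure D1:**
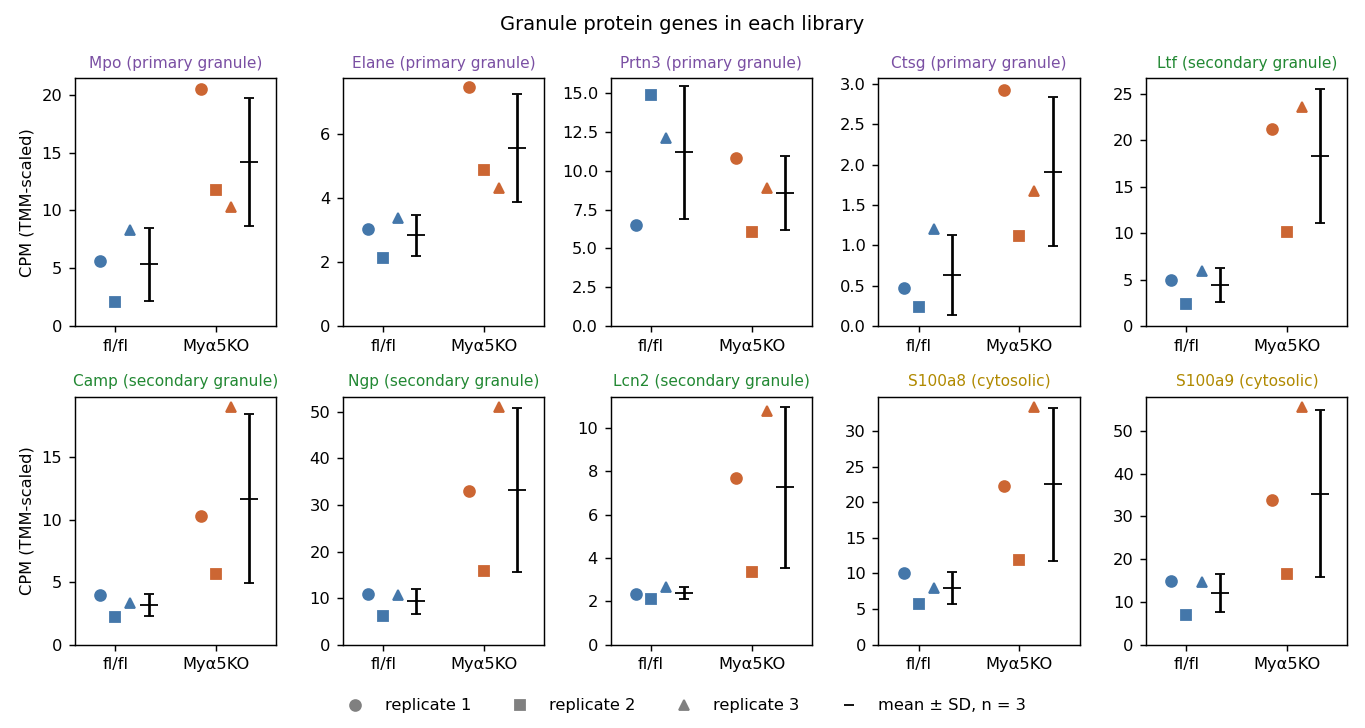
Level of each of the 10 genes in each library, as CPM (TMM-scaled counts per 1000000) on the y axis of each panel, by group on the x axis. Points are libraries and bars are the mean ± SD of 3 libraries. Ltf spanned 2.41 to 5.92 CPM in ITGA5 fl/fl and 10.1 to 23.5 CPM in Myα5KO, without overlap, and Prtn3 overlapped between the groups.

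Promoter sequence is shown for 4 members, to set the secondary granule genes with the largest fold change and the highest count (Ltf and Ngp) beside 2 neighbouring primary granule genes that differed from each other (Elane and Prtn3). Each line gives 140 bases ending just before the start of the gene's protein-coding transcripts, 5′ to 3′ on the gene's strand, from RefSeq on GRCm38.p6. They lie at chr9:111019131-111019270 for Ltf, chr9:110419607-110419746 for Ngp, chr10:79886107-79886246 for Elane and chr10:79879474-79879613 for Prtn3, all on the plus strand and outside annotated exons. The annotated Prtn3 gene begins further upstream, at 79874476, so its stretch lies within the gene. Capitals mark matches to the PU.1 core motif GAGGAA or the C/EBP motif TTGCNNAA, each on either strand; the 2 motifs share no bases here.
Ltf: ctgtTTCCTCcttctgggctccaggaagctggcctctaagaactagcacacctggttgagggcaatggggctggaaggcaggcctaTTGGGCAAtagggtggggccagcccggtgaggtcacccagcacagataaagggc
Ngp: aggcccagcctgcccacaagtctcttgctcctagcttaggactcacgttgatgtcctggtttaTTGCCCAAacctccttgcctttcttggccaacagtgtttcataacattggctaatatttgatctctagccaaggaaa
Elane: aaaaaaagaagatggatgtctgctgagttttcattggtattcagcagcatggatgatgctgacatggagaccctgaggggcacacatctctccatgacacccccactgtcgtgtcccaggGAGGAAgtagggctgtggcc
Prtn3: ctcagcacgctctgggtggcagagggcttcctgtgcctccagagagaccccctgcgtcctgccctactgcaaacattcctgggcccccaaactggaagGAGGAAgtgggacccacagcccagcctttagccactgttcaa
The 250 bases before the RefSeq start were searched in all 10 members, and Camp had no match to any motif named here. Except for Ctsg and S100a9, these windows run past the start of the protein-coding transcripts used above. The Lcn2 window, at 32387740 to 32387989 on the minus strand, lies wholly past its start at 32388252. The matches in Lcn2, both MYB matches and the TATA match given below therefore lie downstream of that start, not upstream. The C/EBP motif was present in 4 of the 10 (Ltf, Ngp, Lcn2 and S100a9), none of them primary, and in 9.56% of 32851 windows of all genes. The PU.1 motif was present in 7 of the 10, including all 4 primary genes, and in 23.3% of windows. The RUNX motif TGTGGT was found in 2 of 10 (Ctsg and S100a9; 14.0% of windows), the MYB motif TAACNG in 2 of 10 (Mpo and Elane; 19.8%) and the TATA motif TATAAA, sought on the gene's strand, in 1 of 10 (S100a8; 7.59%). These are matches of letters, and no binding was measured.

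All 4 secondary granule genes were higher in Myα5KO, with log2 fold changes of 1.61 to 2.05. Ltf encodes lactoferrin, which binds iron and so withholds it from bacteria. Its level was 4.96, 2.41 and 5.92 CPM in ITGA5 fl/fl libraries 1 to 3 and 21.2, 10.1 and 23.5 CPM in Myα5KO libraries 1 to 3. Every Myα5KO library lay above every ITGA5 fl/fl library, and the lowest Myα5KO library was 1.71-fold the highest ITGA5 fl/fl library. The means were 4.43 ± 1.81 and 18.3 ± 7.17 CPM (SD, n = 3 each), and the log2 fold change was 2.05 (SE 0.31). Ltf ranked 6 among the 14522 tested genes by fold change.

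Camp encodes cathelicidin, which is cleaved to an antimicrobial peptide. It stood at 3.95, 2.17 and 3.36 CPM in ITGA5 fl/fl and 10.3, 5.67 and 19.0 CPM in Myα5KO libraries. The groups were separate, with Myα5KO library 3 highest and library 2 lowest of its group, and the log2 fold change was 1.89 (SE 0.36). Ngp, which encodes a cathelicidin-related protein of the specific granule, was the most abundant of the class in counts. Its levels were 10.9, 6.23 and 10.7 CPM against 33, 15.9 and 51.0 CPM, a log2 fold change of 1.85 (SE 0.32). Lcn2 encodes lipocalin, which captures bacterial siderophores and is also made by activated macrophages. It was measured at 2.35, 2.11 and 2.67 CPM against 7.67, 3.37 and 10.8 CPM, a log2 fold change of 1.61 (SE 0.33). The ITGA5 fl/fl libraries were closest to each other for Lcn2, with a highest-to-lowest ratio of 1.26, against 3.20 among the Myα5KO libraries.

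Cytosolic S100a8 and S100a9 had the same order of libraries within the Myα5KO group as the secondary genes. S100a8 was at 10.1, 5.70 and 7.97 CPM in ITGA5 fl/fl and 22.3, 11.9 and 33.4 CPM in Myα5KO libraries, a log2 fold change of 1.51 (SE 0.29). S100a9 was at 14.9, 6.93 and 14.6 CPM against 33.9, 16.5 and 55.5 CPM, a log2 fold change of 1.55 (SE 0.35). For both genes the groups were separate by a narrow margin, with the lowest Myα5KO library 1.18-fold and 1.11-fold the highest ITGA5 fl/fl library. S100a9 was no longer called without ITGA5 fl/fl replicate 2, where its log2 fold change was 1.26, or by DESeq2.

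Primary granule genes ranged from -0.39 to 1.56 in log2 fold change. Mpo encodes myeloperoxidase, which makes hypochlorous acid from hydrogen peroxide. It stood at 5.63, 2.06 and 8.31 CPM in ITGA5 fl/fl and 20.5, 11.8 and 10.3 CPM in Myα5KO libraries, without overlap. The log2 fold change was 1.41 (SE 0.34), and it was 1.04 and no longer called without Myα5KO replicate 1. DESeq2 did not call Mpo either. Elane encodes neutrophil elastase, a serine protease. Its levels were 3.02, 2.11 and 3.36 CPM against 7.45, 4.87 and 4.31 CPM, also without overlap, a log2 fold change of 0.97 (SE 0.24). The call was lost without ITGA5 fl/fl replicate 2 (0.79) and without Myα5KO replicate 1 (0.69).

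Ctsg, the gene of the serine protease cathepsin G, was the scarcest of the 10, with 7, 4 and 21 counts in ITGA5 fl/fl libraries and 55, 21 and 32 counts in Myα5KO libraries. ITGA5 fl/fl library 3 and Myα5KO library 2 held the same number of counts, so the groups overlapped. Of the ITGA5 fl/fl libraries only library 3 reached 10 counts. Ctsg thus passed the filter through the Myα5KO libraries, where it was higher, and no weight is put on its calls. The log2 fold change of 1.56 (SE 0.49) was of the size seen for S100a9, but Ctsg was not called. It was called in 6 of 13 alternatives: without ITGA5 fl/fl replicate 3 (2.44 on the log2 scale), without Myα5KO replicate 2 (1.83), and with 4 other settings, DESeq2, library-size scaling and no count filter among them.

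Prtn3 encodes proteinase 3, a close relative of elastase, and was the exception in direction. Its levels were 6.50, 14.9 and 12.1 CPM in ITGA5 fl/fl and 10.8, 6.05 and 8.89 CPM in Myα5KO libraries. The groups overlapped, the highest level was in ITGA5 fl/fl library 2 and the lowest in Myα5KO library 2. The log2 fold change was -0.39 (SE 0.25), not called, and it ranged from -0.65 to -0.13 when single libraries were left out. Prtn3 lies 3072 bases from Elane on chromosome 10, and its annotated start overlaps the start of Plppr3, which runs on the opposite strand. How strand and shared reads were handled in counting is not stated, so the counts of Prtn3 are uncertain to that extent. Mpo likewise overlaps an antisense gene, Gm11505, which had 0 counts in every library.

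**Figure D2:**
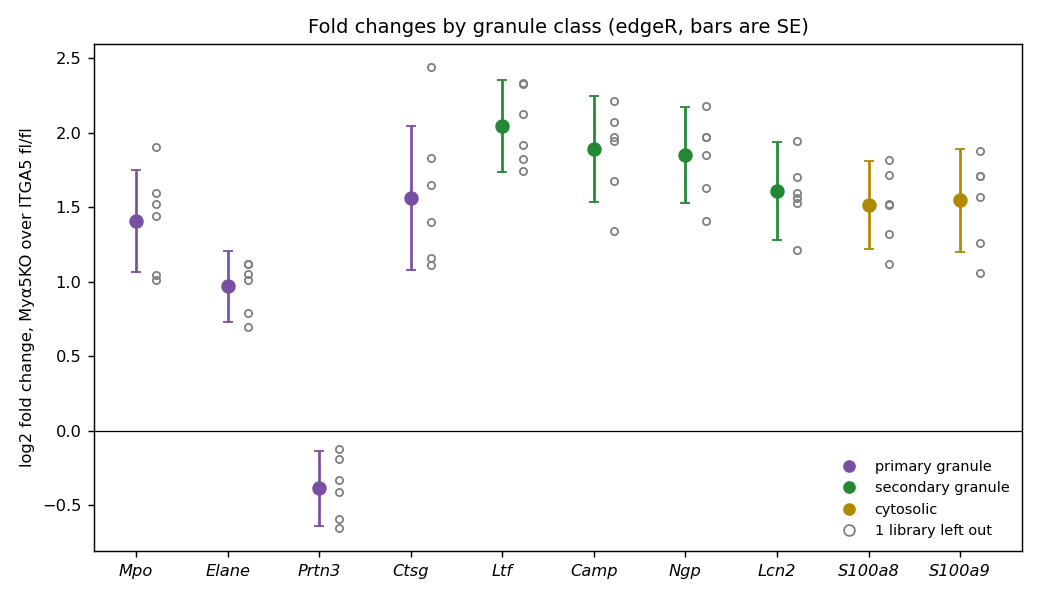
Log2 fold change of Myα5KO over ITGA5 fl/fl (y axis) for each gene (x axis), from edgeR, with bars of 1 SE and colours for the classes; open points leave out 1 library each. The 4 secondary genes lie between 1.61 and 2.05 and Prtn3 lies below 0, at -0.39.

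The classes summed over their genes repeat this contrast. The secondary class summed to 22.1, 12.9 and 22.7 CPM in ITGA5 fl/fl and 72.2, 35.0 and 104 CPM in Myα5KO libraries, a ratio of means of 3.67. The cytosolic pair summed to 25.0, 12.6 and 22.5 CPM against 56.1, 28.5 and 88.9 CPM, a ratio of 2.88. The primary class summed to 15.6, 19.3 and 24.9 CPM against 41.7, 23.9 and 25.1 CPM, a ratio of 1.51 with overlapping groups. Without Prtn3 the primary sum was 9.12, 4.41 and 12.9 CPM against 30.9, 17.8 and 16.2 CPM, a ratio of 2.46 without overlap. Over all 10 genes the sum was 62.7, 44.9 and 70.1 CPM in ITGA5 fl/fl and 170, 87.4 and 218 CPM in Myα5KO libraries. The 10 genes together took 43.87 to 67.87 counts per 1000000 in ITGA5 fl/fl libraries and 88.96 to 225.4 in Myα5KO libraries.

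The Myα5KO libraries were ordered differently by class. All 4 secondary and both cytosolic genes were highest in Myα5KO library 3, then 1, then 2. Mpo and Elane were highest in library 1, then 2, then 3, and Ctsg in library 1, then 3, then 2. In the ITGA5 fl/fl group library 2 was lowest for 9 of the 10 genes, Prtn3 being the exception. Ctsg, Mpo and Elane differed between Myα5KO libraries 1 and 3 in the opposite sense to the secondary genes, as the 3 panels of library profiles show. The ratio of variance to mean count in the ITGA5 fl/fl group was 0.61 for Lcn2 and 2.63 (Elane) to 33.6 for the other genes, where counting error alone gives about 1. In Myα5KO it was 8.19 to 197. With 3 libraries a low ratio such as that of Elane in ITGA5 fl/fl need not exceed counting error.

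**Figure D3:**
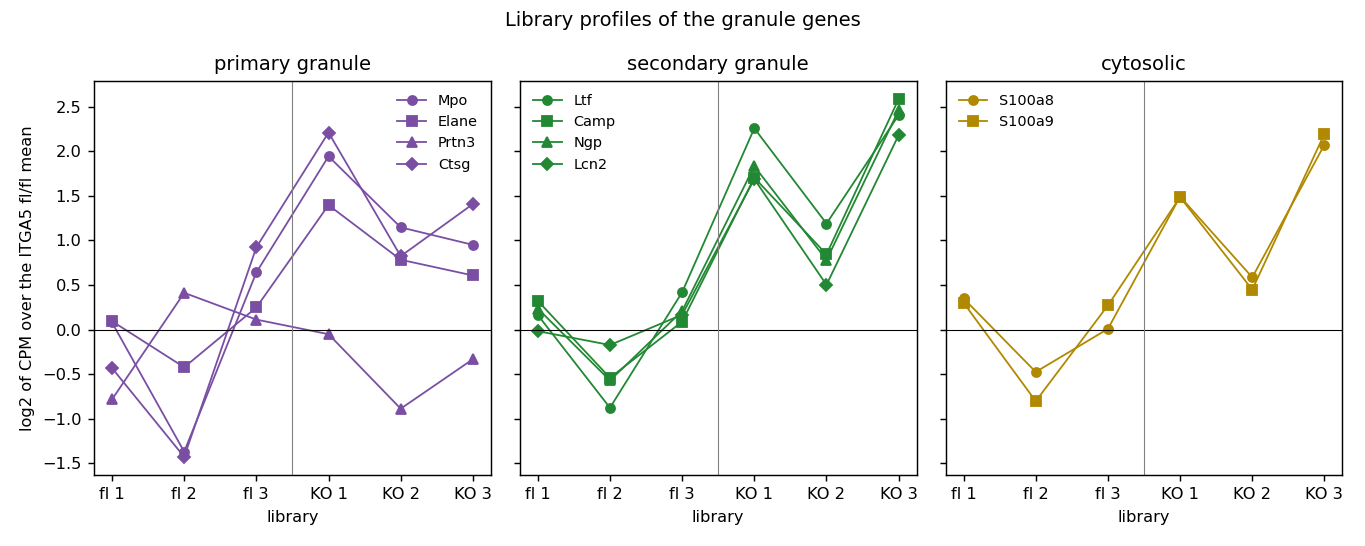
Log2 of each gene's CPM over its ITGA5 fl/fl mean (y axis) in the 6 libraries (x axis: fl, ITGA5 fl/fl; KO, Myα5KO), with 1 panel per class and 1 line per gene. Secondary and cytosolic genes share a peak in Myα5KO library 3, whereas Mpo, Elane and Ctsg peak in Myα5KO library 1.

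Ratios within a library do not depend on scaling. The secondary-to-cytosolic ratio of counts was 0.885, 1.02 and 1.01 in ITGA5 fl/fl, against 1.29, 1.23 and 1.17 in Myα5KO libraries, which did not overlap. The primary-to-secondary ratio was 0.706, 1.5 and 1.10 against 0.577, 0.681 and 0.241, lower in Myα5KO without overlap. With Prtn3 removed from the primary sum, that ratio was 0.412, 0.341 and 0.568 against 0.428, 0.508 and 0.156, and the groups overlapped. Within classes the group means of 2 ratios were close. S100a9 to S100a8 ran from 1.22 to 1.83 over the 6 libraries and averaged 1.51 ± 0.308 and 1.52 ± 0.138 (SD, n = 3 each) and Camp to Ngp 0.342 ± 0.0258 and 0.347 ± 0.0321. Prtn3 to Elane was 2.16, 7.06 and 3.59 in ITGA5 fl/fl, against 1.45, 1.24 and 2.06 in Myα5KO libraries.

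Per length, the order of the genes was led by the cytosolic pair. S100a9 had a mean of 23.1 ± 8.65 FPKM in ITGA5 fl/fl and 66.9 ± 36.5 FPKM in Myα5KO, followed by S100a8 at 11.4 ± 3.21 and 32.1 ± 15.1 FPKM and Ngp at 7.55 ± 2.16 and 27.0 ± 14.0 FPKM. Mpo was at 1.55 ± 0.916 and 4.12 ± 1.62 FPKM, Ltf at 1.28 ± 0.527 and 5.25 ± 2.04 FPKM, and Ctsg lowest at 0.611 ± 0.484 and 1.84 ± 0.896 FPKM. Neighbours in this order overlapped within 1 SD of their means in each group. In the ITGA5 fl/fl mean, S100a9 lay above 86.1% of tested genes by FPKM and Ctsg above 16.9%, and in Myα5KO above 95.1% and 35.1%.

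**Figure D4:**
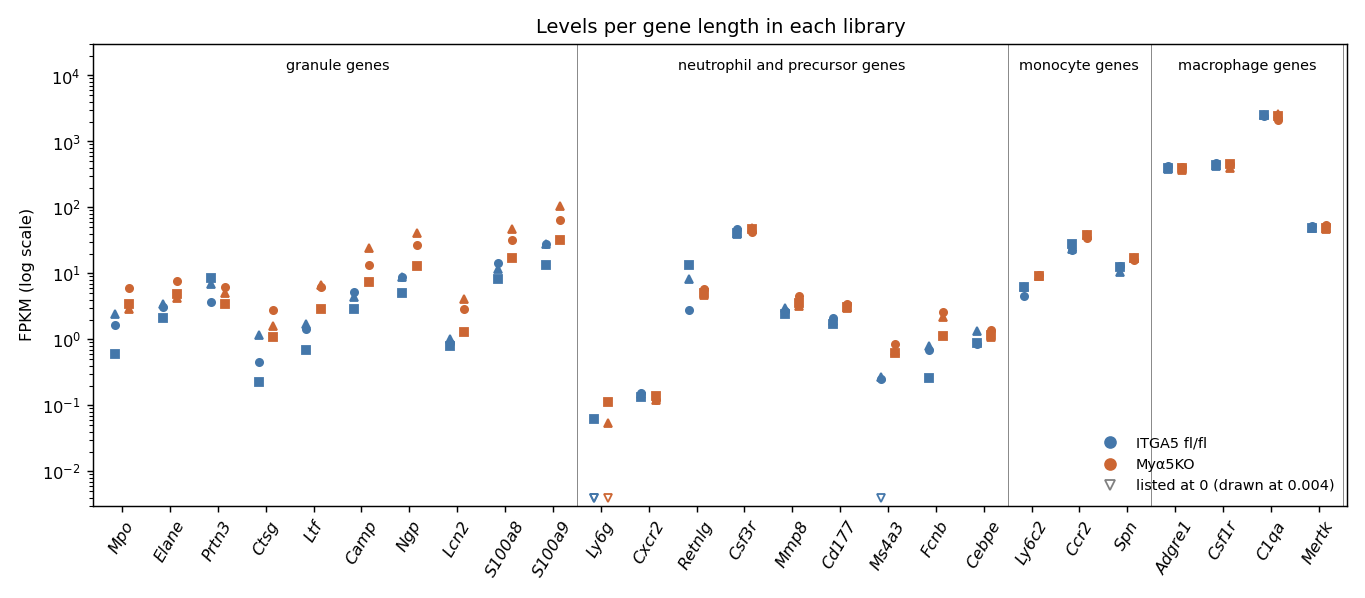
FPKM on a log axis (y) for the 10 granule genes and for neutrophil, monocyte and macrophage genes (x), with 1 point per library (circle, square and triangle for replicates 1, 2 and 3). The macrophage genes Adgre1, Csf1r and C1qa stand above all 10 granule genes and Ly6g is at or near 0 in every library. Mertk, also drawn, does not: it is at 53.7, 48.8 and 46.6 FPKM in Myα5KO libraries 1 to 3, where S100a9 is at 64.7, 31.6 and 104 FPKM.

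The members lie in 3 clusters and 3 single loci. Camp, Ngp and Ltf are on chromosome 9, at 109847379 to 109849617, 110419747 to 110423012 and 111019271 to 111042767 on GRCm38, with 1169653 bases between Camp and Ltf. The 18 other tested genes between Camp and Ltf had log2 fold changes of -0.60 to 0.56, with a median of 0.12, against 0.01 over all tested genes. Of these 4 were called (22.2%, against 8.75% of all tested genes): on the log2 scale Klhl18 rose by 0.43 (adjusted p 0.00584), Dhx30 by 0.30 (0.0228) and Nbeal2 by 0.24 (0.0444), and Ptpn23 fell by 0.60 (0.000329), in edgeR. The Dhx30 call was lost without any 1 of ITGA5 fl/fl replicates 2 and 3 and Myα5KO replicate 2 (range over all 6 such fits 0.26 to 0.32), and that of Nbeal2 without any 1 of those or Myα5KO replicate 1 (0.19 to 0.30). None of the neighbours approached the fold changes of Camp, Ngp or Ltf. S100a8 and S100a9 lie 22596 bases apart on chromosome 3.

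Genes of other granule lists were called in both directions, where 3.56% of all tested genes were called higher and 5.19% lower. The lists were assembled with earlier results known, their calls are from the same edgeR fit, and all changes are given on the log2 scale. Of 6 tested other primary granule genes, 0 rose and 1 fell, and the median log2 fold change was 0.06. The 1 was Srgn, the gene of the granule proteoglycan serglycin (-0.34, adjusted p 0.009), which lost its call without ITGA5 fl/fl replicate 2 (-0.31). Of 10 tested other secondary granule genes 1 rose and 1 fell. Cd177, a glycoprotein of specific granules and the neutrophil surface, rose by 0.74 (adjusted p 0.00578), from 4.88 to 6.10 CPM in ITGA5 fl/fl to 8.52 to 9.90 CPM in Myα5KO libraries. Slpi, an inhibitor of elastase and cathepsin G, fell by 1.75 (adjusted p 0.0137), with 14.9, 66.7 and 75.5 CPM in ITGA5 fl/fl and 14.0 to 17.6 CPM in Myα5KO libraries. Its groups overlapped, and the call was lost without ITGA5 fl/fl replicate 2 (-1.54) or 3 (-1.39). Mmp8, the neutrophil collagenase, was at 0.47 (adjusted p 0.0665) and Chil3, a chitinase-like protein also made by macrophages, at -0.06 (0.811). Of 4 gelatinase granule genes 0 rose and 2 fell: Adam8 by 0.40 (adjusted p 0.0147; not without ITGA5 fl/fl replicate 3, where it was -0.34) and Slc11a1, a metal transporter, by 0.28 (0.0389). Of the 6 fits without 1 library, that without Myα5KO replicate 2 alone called Slc11a1 (range -0.33 to -0.21). Mmp9, the gelatinase itself, was at 0.39 (0.235).

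Genes of granulocyte precursors were measured at low levels. Of 7 tested, 2 rose, against 3.56% of all tested genes called higher. Ms4a3, expressed in granulocyte-monocyte progenitors, had 7, 0 and 9 counts in ITGA5 fl/fl and 30, 22 and 24 counts in Myα5KO libraries, a log2 fold change of 2.03 (adjusted p 0.0353), and its call was lost in each of the 6 fits without 1 library (1.44 to 2.56). Ms4a3 reached 10 counts in Myα5KO libraries only, and DESeq2 gave it no adjusted p, so no weight is put on its call. Fcnb, the gene of ficolin B, had 14, 6 and 19 counts against 65, 28 and 57, a log2 fold change of 1.74 (adjusted p 0.016), lost without ITGA5 fl/fl replicate 2 (1.38). The filter of 10 counts in every library removed both Ms4a3 and Fcnb. Cebpe, the transcription factor that drives secondary granule genes, had 16, 19 and 29 counts against 33, 27 and 26, a log2 fold change of 0.24 (adjusted p 0.669). Of the 9 tested transcription factors of granule genes, including Cebpa, Cebpb and Spi1 (which encodes PU.1), 0 were called.

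Mature neutrophil genes went in both directions. Of 11 tested, 1 rose and 3 fell (against 3.56% of all tested genes called higher and 5.19% lower), with a median log2 fold change of -0.05. Asprv1 fell by 2.38 (adjusted p 0.00748), from 15, 11 and 21 counts to 4, 3 and 3. Asprv1 passed the filter on low counts through the ITGA5 fl/fl libraries only, where it was higher. DESeq2 gave Asprv1 no adjusted p, so no weight is put on its call. Trem1, a receptor of neutrophils and monocytes, fell by 0.76 (adjusted p 0.00197). Padi4, which citrullinates histones, fell by 1.11 (0.0305). Among the 6 fits without 1 library Padi4 was called only without ITGA5 fl/fl or Myα5KO replicate 1 (-1.43 to -0.88). Its groups overlapped, with 18.6 CPM in ITGA5 fl/fl library 1 and 23.7 CPM in Myα5KO library 1. DESeq2 did not call Padi4 (adjusted p 0.175). Csf3r, the receptor for granulocyte colony-stimulating factor, was at 0.13 (adjusted p 0.378) and Retnlg at -0.65 (0.311), with 25, 134 and 86 against 64, 57 and 54 counts. All 5 stefin A genes fell under the filter, 3 of them at 0 in every library.

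Receptors and inhibitors of the granule proteins were covered by 2 further lists, where 3.56% of all tested genes were called higher and 5.19% lower. Of 9 receptor genes 0 rose and 1 fell: Cd14, the co-receptor of TLR4, by 0.45 (adjusted p 0.00413). Tlr4, a receptor for S100A8 and S100A9, was at 0.31 (adjusted p 0.0592) and Bsg, another S100A9 receptor, at -0.02 (0.885). Of 6 tested inhibitor genes 1 fell, Slpi.

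Markers of other cell types were summed beside these results, and their part in them was not tested. Monocyte genes summed to 1280 to 1420 CPM in ITGA5 fl/fl and 1720 to 2020 CPM in Myα5KO libraries, and 5 of 8 rose (against 3.56% of all tested genes called higher), among them Ly6c2 by 0.71 (adjusted p 0.00225), Ccr2 by 0.58 (0.00111), Spn by 0.49 (0.00306) and Nr4a1 by 0.42 (0.00972; not without ITGA5 fl/fl replicate 3, where it was 0.36). B cell genes summed to 111 to 152 CPM against 155 to 237 CPM, and 2 of 6 rose, among them Cd79b by 0.57 (adjusted p 0.0258). Among the fits without 1 library, Cd79b was called only without ITGA5 fl/fl replicate 3 or Myα5KO replicate 2 (0.43 to 0.74). T and NK cell genes summed to 11.5 to 16.0 CPM against 17.6 to 21.2 CPM, with 0 of 4 called. Of 8 macrophage genes 1 rose, Fcgr1 by 0.27 (adjusted p 0.0215), which among those fits was called only without Myα5KO replicate 1 or 3 (0.24 to 0.29). No tested eosinophil (4), basophil and mast cell (1) or erythroid gene (2) was called. Lyz1, a lysozyme gene that neighbours Lyz2, rose from 14.4 ± 1.84 to 103 ± 20.2 CPM while Lyz2, where the Cre resides, fell to 53.0% of its ITGA5 fl/fl level.

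**Figure D5:**
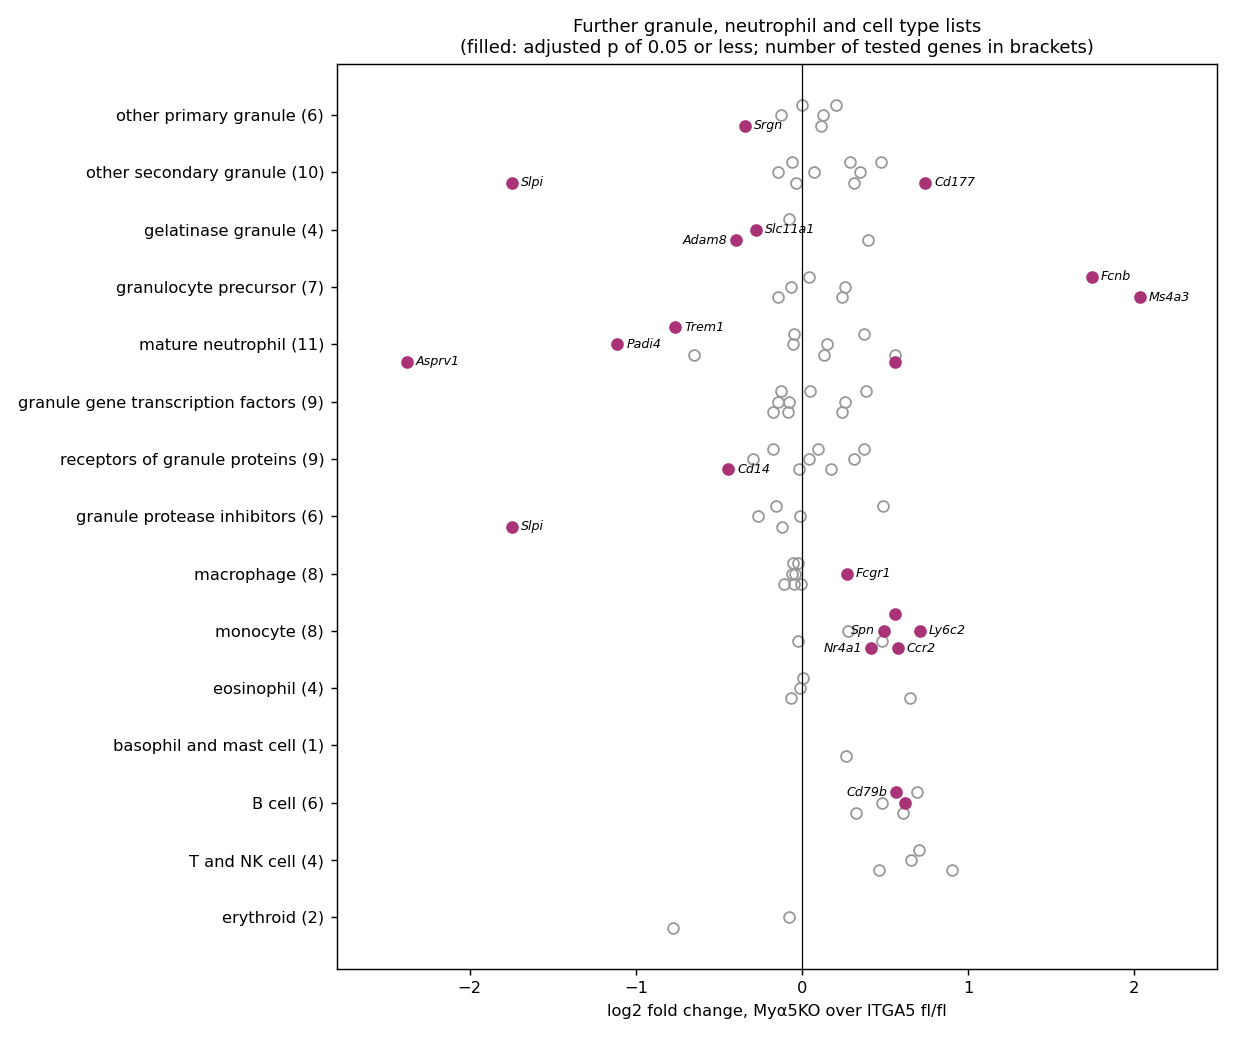
Log2 fold change of Myα5KO over ITGA5 fl/fl (x axis) for tested genes of the further lists (y axis, number tested in brackets), with called genes filled and most of them named. Ms4a3 and Fcnb lie above 1.7 and Asprv1 below -2.

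The nearest genes by shape, taken as the root mean square difference of log2 CPM centred over the 6 libraries among 11855 candidate genes, were the same in part for both classes. Fcnb was the nearest to the secondary sum (0.34) and to the cytosolic sum (0.30). The next for the secondary sum were Dbp (0.61), Cacna1i (0.63), Calhm6 (0.64) and Ccdc125 (0.65), and for the cytosolic sum Ighg1 (0.52), Dbp (0.53), Calhm6 (0.56) and Ighv1-18 (0.56). Among the members, distances from the secondary sum were 0.05 to 0.30 for the secondary genes, which are part of it, 0.20 to 0.23 for the cytosolic genes, 0.55 for Ctsg, 0.64 for Mpo, 0.69 for Elane and 1.22 for Prtn3. All 6 libraries enter each distance, so the difference between the groups is part of it.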

How the data were processed

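Macrophages of 6 infarcted hearts were sequenced, 3 ITGA5 fl/fl and 3 Myα5KO, and libraries were grouped by their titles. Per the labels and the study's methods, the authors aligned reads to GRCm38 with TopHat2 2.0.9 and counted them per gene with HTSeq 0.6.1, and the processing notes also name Cufflinks 2.1.1. The deposited counts are raw whole numbers, and the authors also deposited FPKM, per gene length and library. Handling of strand and of multi-mapped reads is not given in the sources used here. The depth was 15424451 to 18419287 counts per library.

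Counts were tested with edgeR 4.0.16 (R 4.3.3): TMM scaling, the default expression filter (minimum count 10, total 15), quasi-likelihood test, Benjamini-Hochberg adjustment over 14522 genes, threshold 0.05, two-sided. SE is the absolute log2 fold change over the square root of the F statistic. Class sums used TMM CPM. The alternatives were DESeq2 1.42.0, other scalings and filters, limma 3.58.1 on log2(FPKM + 1) and log2(FPKM + 0.1) with FPKM of at least 1 in 3 libraries, a replicate block, and leaving out each library. Scripts were tested on simulated data. The members and all lists were chosen with earlier results of these data known. Named genes are the members, the label checks, fixed markers, at most 4 called genes a list by fold change (Nr4a1 was added after its value was seen), called genes between Camp and Ltf, and the 5 nearest profiles per class with a mean of at least 20 counts. Chi3l1 of the lists was not matched. Motifs were sought in RefSeq promoter windows of GRCm38.p6. Some single genes of the marker lists are not reported here.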

Additional observations from a re-analysis of the deposited data

How the results depend on the processing

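The 10 granule genes kept the sign of their fold change under every alternative that could be fitted (13 for Ctsg, which the filter of 10 counts in every library removed, and 14 for each of the others). DESeq2 called 1 cytosolic gene (S100a8 and not S100a9), 2 primary genes (Elane and Ctsg and not Mpo) and 5 further-list genes lower. Library-size scaling called 1212 genes higher and 24 further-list genes higher, and no count filter called 798 and 26. With log2(FPKM + 1) 472 genes were called (150 higher, 322 lower), 0 of the primary, 1 of the secondary and 0 of the cytosolic genes, and 4 further-list genes higher and 3 lower. With log2(FPKM + 0.1) the counts were 448 (142 and 306), 0, 0 and 0, and 4 and 3. The cause of these changes was not tested. Leaving out single libraries gave 616 to 1091 called genes (187 to 420 higher, 429 to 671 lower), 0 to 3 primary, 4 secondary and 1 to 2 cytosolic genes, and 5 to 12 further-list genes higher and 4 to 9 lower. The total fell by over 1.5 times without ITGA5 fl/fl replicate 3 (616), ITGA5 fl/fl replicate 2 (723) and Myα5KO replicate 2 (819), and the genes called higher also without ITGA5 fl/fl replicate 1 (341). Over all tested genes, same-numbered libraries did not deviate together (correlations of 0.05, -0.08 and 0.04). With 3 libraries per group this cannot settle whether the numbers pair the samples. Under a replicate block the SE of Ltf was 0.118, against 0.307 without it, and that of Prtn3 was 0.279, against 0.25. A replicate block called 1181 genes, 3 primary (Ctsg added), 4 secondary and 2 cytosolic. Low counts limit the precision of Ctsg, Ms4a3, Fcnb and Asprv1, all of which the filter of 10 counts in every library removed.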
